A study of Mus musculus with 16 samples.

Results

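The airway epithelium of mice without the integrin subunit beta6 was compared with that of wild-type mice after saline, so that the genotypes differed in the absence of an allergen. All 4 arrays of each group, 8 of the 16 arrays of the series, entered the comparison, and all 18566 measured genes and unnamed transcripts were tested. Mice of the FvB strain, 6 to 8 weeks old at the start, were wild type (wt_saline) or beta6 knockout (ko_saline). Both groups were given saline in place of ovalbumin (OVA), into the peritoneum on days 1, 4 and 7 and then into the nose each week for 9 weeks. The epithelium was brushed from the airway 24 h after the last dose and measured on one-colour arrays. The matching groups that received OVA, wt_OVA and ko_OVA, entered the same fit. They therefore share in the variance estimate behind each SE and limma p, and the array ko_OVA 4 set the floor. Their own difference by genotype is set beside that after saline further below. Beyond the strain, the labels do not say how the knockout was made or bred, or how many mice gave 1 array, so the p-values measure the spread between arrays.

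Beta6, encoded by Itgb6, pairs with the alpha v subunit on epithelial cells. The pair binds the latent form of TGF-beta and releases its activity, which restrains inflammation and drives matrix genes. Mast cells are granulated immune cells that reside in tissues, carry the high-affinity IgE receptor and store proteases, heparin and amines. In mice, mast cells of connective tissue are known for Mcpt4, Cma1, Tpsb2 and Cpa3, and mast cells of mucosal surfaces for Mcpt1 and Mcpt2.

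All levels below are log2 values of the signal over each array's 75th percentile, with a floor of -3.32 below which no level is read, and all differences are ko_saline minus wt_saline on this scale. A gene is called where limma's adjusted p over all genes was under 0.05. By this rule 30 transcripts were called, 0.162% of those tested. Of these, 23 were higher in ko_saline, 19 of them with a gene symbol, and 7 were lower, 5 of them with a symbol. The median difference over all genes was 0.

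The material carried the markers of airway epithelium in both groups. Krt8, a keratin of simple epithelium, had levels of 7.60 to 8.04 in wt_saline and 7.13 to 7.80 in ko_saline, and the ciliated cell factor Foxj1, with the flagged spot of ko_saline 4 left out, had 5.43 to 5.89 and 5.26 to 5.55. The club cell product Scgb1a1, with the flagged spot of wt_saline 4 left out, had 9.25 to 10.7 and 8.41 to 10.3. Pecam1 of endothelium and Ccr3 of eosinophils were at the floor on all 8 arrays, but other markers outside the epithelium were measured. Dcn of fibroblasts had 3.61 to 3.97 in wt_saline and 3.54 to 4.56 in ko_saline. Adgre1 of macrophages had -0.05 to 0.35 and -0.95 to 2.48, and Acta1 of striated muscle -2.91 to 1.83 and -1.10 to 4.99. Cdh5 of endothelium was at the floor in wt_saline and at -3.32 to -1.73 in ko_saline. The 75th percentile of signal was 129 to 375 intensity units in wt_saline and 235 to 793 in ko_saline (exact permutation p = 0.2, two-sided). Probes well above background made up 47.8 to 58.4% and 53.9 to 62.7% (exact permutation p = 0.229).

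Itgb6 itself did not separate the groups. Its brightest probe had levels of -0.88, -0.93, -0.81 and -0.39 on wt_saline 1 to 4 and of -1.02, -0.78, -0.73 and -0.92 on ko_saline 1 to 4. The groups overlapped, with means of -0.75 ± 0.25 and -0.86 ± 0.13 (SD, n = 4 each) and an exact permutation p of 0.571, two-sided. A dimmer probe had means of -1.85 ± 0.26 and -2.13 ± 0.28 (exact permutation p = 0.171), and the third was at the floor on all 8 arrays. The smallest p that 4 against 4 arrays can give is 0.0286. Where these probes lie relative to the disrupted part of the gene is not given in the sources used here, so the probes check no label.

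The epithelium of ko_saline held more transcript of 6 mast cell proteases and of 4 receptors and identity factors, such as Fcer1a, the IgE-binding chain of the IgE receptor. It also held more of 4 members of a list of amine and granule genes, namely Tph1, Slc18a2, Lat2 and Chst1. Of 46 measured genes in 3 lists of mast cell genes, 14 were called higher and 0 lower, where 0.124% of all tested genes were called higher. The lists and their members were chosen with earlier results of these data known, so these shares are a description. The differences of the 14 ran from 0.88 to 5.19. Of the 46, 16 had every ko_saline array above every wt_saline array, and 1 had every ko_saline array below. Over all genes these shares were 1.99% and 2.06%. The 14 called genes are among the 16. All 30 called transcripts had groups that did not overlap, so the separation of the 14 adds nothing to their calls. The median over the 46 was 0.17, beside 0 over all genes. In bulk material more mast cells and more RNA per mast cell cannot be told apart.

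**Figure D1:**
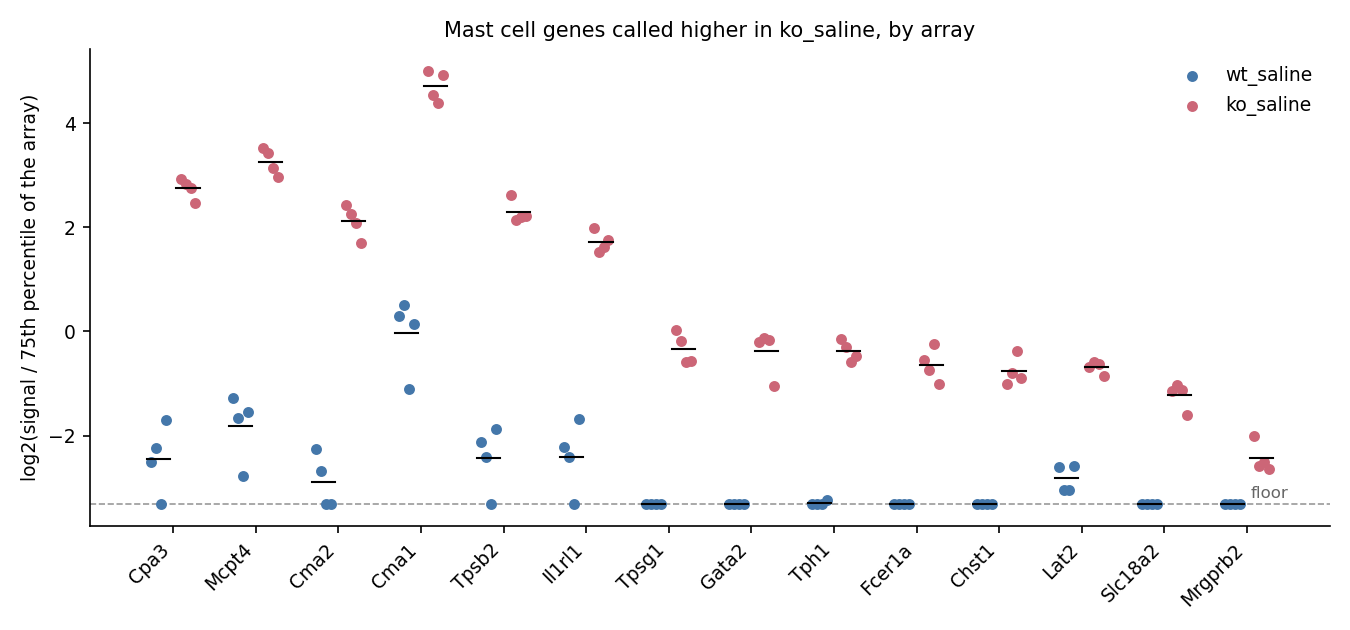
Levels of the 14 mast cell genes called higher in ko_saline, as log2 of signal over the 75th percentile of the array, with 1 point per array, a bar at each group mean and a dashed line at the floor of -3.32. No gene has overlapping groups, and 6 of the 14 lie at the floor on all 4 wt_saline arrays.

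Promoter sequences of this group are shown because its members were higher together and Gata2, a factor that binds GATA sites and is needed for mast cell identity, was among them. The 250 bases before the transcription start come from RefSeq (GRCm38.p6) and are written 5′ to 3′ on the strand of the gene. Capitals mark the hexamer AGATAA or the hexamer AGATAG, and also the hexamer TGATAA or the hexamer TGATAG, each searched at every position on either strand, so that matches may overlap.
Cpa3 (chr3:20242182-20242431, minus strand): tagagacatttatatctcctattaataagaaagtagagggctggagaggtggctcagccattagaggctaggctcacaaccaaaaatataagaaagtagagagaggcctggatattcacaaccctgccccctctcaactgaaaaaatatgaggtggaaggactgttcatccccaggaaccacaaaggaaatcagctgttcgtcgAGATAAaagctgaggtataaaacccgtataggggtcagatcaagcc
Mcpt4 (chr14:56062311-56062560, minus strand): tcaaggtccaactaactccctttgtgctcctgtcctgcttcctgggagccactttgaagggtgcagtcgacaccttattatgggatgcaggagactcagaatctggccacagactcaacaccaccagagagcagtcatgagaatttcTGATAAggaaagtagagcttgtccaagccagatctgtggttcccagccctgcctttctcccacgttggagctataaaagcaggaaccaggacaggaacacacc
Mcpt1 (chr14:56017714-56017963, plus strand): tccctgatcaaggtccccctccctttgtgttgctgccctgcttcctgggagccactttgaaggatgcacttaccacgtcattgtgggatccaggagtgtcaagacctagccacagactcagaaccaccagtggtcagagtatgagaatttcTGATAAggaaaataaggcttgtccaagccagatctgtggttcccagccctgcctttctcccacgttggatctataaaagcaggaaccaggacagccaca
Fcer1a (chr1:173227230-173227479, minus strand): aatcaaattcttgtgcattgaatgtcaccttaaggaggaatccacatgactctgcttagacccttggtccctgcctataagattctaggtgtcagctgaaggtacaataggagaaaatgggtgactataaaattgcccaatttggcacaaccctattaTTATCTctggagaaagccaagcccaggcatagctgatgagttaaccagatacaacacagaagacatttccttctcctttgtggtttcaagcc
Cpa3, Mcpt4 and Fcer1a were called higher in ko_saline, whereas Mcpt1, on the same chromosome as Mcpt4 and with the same TGATAA in its window, was at the floor in both groups. Of the 14 genes, 11 were in the promoter table, with 15 windows, and 10 of these windows held a match, as did 26.5% of all 32851 windows. Il1rl1 held up to 5 matches in a window, Slc18a2 held 2, and Gata2 and Chst1 held none. A match describes the letters only.

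Cpa3, the carboxypeptidase of mast cell granules, had levels of -2.51, -2.25, -3.32 and -1.71 in wt_saline and of 2.93, 2.83, 2.76 and 2.47 in ko_saline. Its difference of 5.19 ± 0.29 (SE, n = 4 and 4, limma adjusted p = 4.23e-07) rests in part on the floor, at which wt_saline 3 lay. The chymase Mcpt4 had levels of -1.28, -1.66, -2.78 and -1.55 in wt_saline and of 3.52, 3.43, 3.15 and 2.96 in ko_saline. Within each group the arrays lay closer together than the gap between the groups. Cma1, the classical mast cell chymase, had 0.30, 0.51, -1.11 and 0.15 in wt_saline and 5.01, 4.55, 4.38 and 4.93 in ko_saline. It was thus measured above the floor on all 8 arrays, so its difference of 4.75 ± 0.32 does not rest on the floor, and a second, dimmer probe of Cma1 differed by 4.94.

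Cma2, a relative of Cma1, had levels of -2.25, -2.69, -3.32 and -3.32 in wt_saline and of 2.44, 2.25, 2.09 and 1.70 in ko_saline. Tpsb2, the main mast cell tryptase, had -2.13, -2.41, -3.32 and -1.87 against 2.62, 2.14, 2.21 and 2.21. On wt_saline 3 both were at the floor. Of the 8 genes of the group that left the floor on a wt_saline array, 7 had their lowest or joint lowest wild-type level on wt_saline 3. Tpsg1, a tryptase anchored in the membrane, was not well above background on any wt_saline array and had 0.02, -0.18, -0.59 and -0.56 in ko_saline, which was at least 25.1-fold higher (limma adjusted p = 4.02e-06). This bound, and those given for other genes, is taken before the floor is set. On each wt_saline array it uses the lowest signal called well above background or the probe's own signal, whichever is higher. With the floor, the difference of Tpsg1 was 2.99 ± 0.22. Where all 4 arrays of a group lie at the floor, as here, their spread becomes 0. The SE and limma's adjusted p can then come out too small, which concerns 6 of the 14 genes. Fewer arrays at the floor can narrow the spread as well, as with 3 wt_saline arrays for Tph1 and 2 for Cma2.

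Not every protease differed. Of 9 measured proteases 6 were higher, and the median of the 9 was 4.72. Mcpt1 and Ctsg, a protease of neutrophil and mast cell granules, were at the floor on all 8 arrays. Mcpt2 was at the floor except on wt_saline 4 (-3.13) and ko_saline 1 (-2.93). The mucosal proteases therefore showed no level that could be compared, while those of connective tissue mast cells separated the groups. Mcpt9 did not pass the filter on dim probes, and no probe was matched to Tpsab1 through the tables used here.

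Receptors and factors of mast cell identity came next. Il1rl1, the receptor of IL-33, had levels of -2.23, -2.41, -3.32 and -1.69 in wt_saline and of 1.99, 1.53, 1.63 and 1.76 in ko_saline, a difference of 4.14 ± 0.32. Fcer1a, the IgE-binding chain of the high-affinity IgE receptor, lay at the floor in wt_saline and had -0.56, -0.75, -0.24 and -1.003 in ko_saline. Gata2 was likewise at the floor in wt_saline and had -0.21, -0.12, -0.16 and -1.04 in ko_saline, with ko_saline 4 apart from the others. The sizes of the last pair, 2.68 and 2.94, depend on the floor. A second probe of Gata2 differed by 2.28. Mrgprb2, a receptor through which basic peptides trigger mast cells, was not well above background on any wt_saline array and had levels of -2.65 to -2.01 in ko_saline, at least 6.46-fold higher by that bound, with a floored difference of 0.88 ± 0.15 (limma adjusted p = 0.0349). This call was lost without any 1 of the 4 wt_saline arrays, the 4 wt_OVA arrays, ko_saline 1, 2 or 3, or ko_OVA 1 or 2.

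The other 14 of the 18 measured genes of this list were not called. Fcer1g, the signalling chain that the IgE receptor shares with other Fc receptors, differed by 0.12 ± 0.33, Kitl, the mast cell growth factor made by the surrounding tissue, by -0.07 ± 0.17, and Mitf, a factor of mast and pigment cells, by 0.34 ± 0.24. Gata1 and Itga4 were at the floor on all 8 arrays. Ms4a2, the beta chain of the IgE receptor, and Mrgprb1 each had a probe that passed the filter on dim probes. Those probes were at the floor in both groups, and neither gene was tested. No probe was matched to Kit through the tables used here. Called transcripts without a symbol may include such genes. The median of the list was 0.09.

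Genes of amine synthesis and granule storage were split. Tph1, the first enzyme of serotonin synthesis in peripheral tissue, was at the floor on 3 wt_saline arrays and at -3.24 on the fourth, and had -0.14, -0.30, -0.58 and -0.47 in ko_saline, a difference of 2.92 ± 0.16 (limma adjusted p = 4.23e-07). With 3 wt_saline arrays at the floor, this SE and adjusted p can come out too small. A second probe of Tph1 was at the floor in both groups. Slc18a2, which loads amines into granules, had levels of -1.61 to -1.03 in ko_saline, at least 13.8-fold higher by the same bound than in wt_saline, where no array had it well above background, with a floored difference of 2.09 ± 0.21. Slc6a4, the serotonin carrier of the cell surface, was at the floor in wt_saline and at -2.73 to -1.88 in ko_saline, and Maob, which breaks amines down, had means of -0.98 and 0.16. Neither was called (limma adjusted p = 0.0816 and 0.125). Hdc, which makes histamine, overlapped between the groups, with 4.81 to 5.42 in wt_saline and 4.98 to 5.58 in ko_saline and a difference of 0.04 ± 0.17.

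Lat2, an adaptor that acts downstream of the IgE receptor, had levels of -2.61, -3.05, -3.05 and -2.58 in wt_saline and of -0.68, -0.59, -0.62 and -0.86 in ko_saline, a difference of 2.13 ± 0.25. Its second probe differed by 0.70. Chst1, a sulfotransferase of keratan sulfate, was at the floor in wt_saline and at -1.001 to -0.38 in ko_saline. Serglycin (Srgn), the core protein to which heparin is attached, and the heparin-building Ndst2 differed by 0.82 ± 0.57 and 0.14 ± 0.16 and were not called. Of the 19 measured genes of this list 4 were called, all higher.

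Of the 14 calls, 13 were kept without each single array of the series in turn, Mrgprb2 being the exception, and 11 passed under each of 17 other settings. With array position on the slide as a fixed block, Lat2, Slc18a2 and Mrgprb2 were lost. Only position 1 held both saline groups (wt_saline 4, ko_saline 1 and ko_saline 3), and within it the median of the proteases was 4.28, while within the 3 slides that held both groups it was 3.96 to 4.69.

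Markers of other cells that a brushing may pick up were read on the same arrays. The level of the B and plasma cell list, taken as the mean of its 12 measured members, was -1.36 to -1.27 in wt_saline and -0.45, -0.32 and -0.12 on ko_saline 2, 1 and 3, but -1.22 on ko_saline 4. None of the 12 was called by limma, and 4 were higher and 1 lower at an unadjusted p under 0.05, as were 3.04% and 3.26% of all genes. Ms4a1, which encodes CD20, was at the floor in wt_saline and on ko_saline 4, and at 0.18, 0.40 and 0.81 on the other ko_saline arrays. The striated muscle list ran from -1.85 to 0.47 in wt_saline and from -1.98 to 2.35 in ko_saline, and the endothelial list from -2.72 to -2.26 and from -2.72 to -1.67. Of the 20 measured fibroblast and smooth muscle genes 0 were called by limma (2 higher and 0 lower at an unadjusted p under 0.05, median 0.35). Their mean was -0.45 to -0.07 in wt_saline and 0.32, 0.35, 0.05 and -0.33 on ko_saline 1 to 4. The red blood cell list ran from -0.58 to 6.71 in wt_saline and from 0.87 to 4.54 in ko_saline. Sftpc, the surfactant protein of alveolar cells, had 1.29 to 1.79 in wt_saline, 6.29, 4.80 and 6.40 on ko_saline 1, 2 and 3, and 2.44 on ko_saline 4. Of the 16 measured alveolar epithelium genes 0 were called by limma (4 higher and 1 lower at an unadjusted p under 0.05, median 0.13), and their mean was 1.23 to 1.77 in wt_saline and 1.44, 1.96, 2.21 and 1.92 on ko_saline 1 to 4. The mean over the 9 mast cell proteases was 0.77, 0.56, 0.45 and 0.42 on ko_saline 1 to 4 and -3.01 to -2.35 in wt_saline. The part of these cells in the mast cell differences was not tested.

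Outside the mast cell lists, 5 genes with a symbol were higher in ko_saline. Gpr162, an orphan receptor, had levels of -3.32 to -2.58 in wt_saline and -0.96 to -0.34 in ko_saline, and Gpr171, another G protein-coupled receptor, had -3.22 to -2.60 and -1.91 to -1.20. Ednra, the endothelin A receptor, had -1.81 to -1.25 and -0.48 to 0.05. Enkur, a protein of motile cilia and sperm tails, had levels of 1.49, 1.75, 1.45 and 1.21 in wt_saline and 3.09, 3.13, 3.17 and 2.80 in ko_saline, a difference of 1.57 ± 0.15 (limma adjusted p = 7.87e-05). The list of ciliated cell genes, which Enkur was not on, had 0 of 20 called (1 with an unadjusted p under 0.05, lower) and a median of -0.04. Rprm, which halts the cell cycle downstream of p53, had means of -3.27 and -1.97, and its second probe differed by 0.90. Leaving out wt_saline 1, 3 or 4, or ko_saline 1, 2 or 3, ended the call of Gpr171. Array position as a fixed block ended those of Gpr162, Gpr171, Ednra and Rprm, as did normexp background, and with only the 8 saline arrays Gpr171, Ednra and Rprm were lost. Ednra was also lost with median scaling, and Gpr171 with slide as a fixed block. The unnamed transcripts with the largest differences were NM_031187 (4.27 ± 0.26) and M59764 (2.22 ± 0.25).

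On the lower side, the secreted ribonucleases Ear1 and Ear10 and the chitinase-like proteins Chil3 and Chil4 were less abundant in ko_saline. Of 12 measured genes of that list 4 were called lower and 0 higher, where 0.0377% of all tested genes were called lower. This list too was chosen with earlier results of these data known, so its shares are a description. In 5 of the 12 every ko_saline array lay below every wt_saline array, as in 2.06% of all genes. The median of the 12 was -0.64. Ear1 and Ear10 belong to a mouse family of ribonucleases made by eosinophils and macrophages, and Chil3 and Chil4, also known as Ym1 and Ym2, are chitin-binding proteins without enzyme activity that macrophages and airway epithelium secrete. The list of eosinophil genes had 1 of 5 called, Ear1 itself, and the IL-4 and IL-13 axis 2 of 16, Chil3 and Chil4, so these counts are not independent of each other.

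The promoter windows of both ribonucleases are shown because the genes are close copies and were lower together. These windows lie before the transcription start, so their likeness does not show whether the transcripts share probe sequence. Both windows are written as above, and neither holds a match to the motifs searched there.
Ear1 (chr14:43819640-43819889, minus strand): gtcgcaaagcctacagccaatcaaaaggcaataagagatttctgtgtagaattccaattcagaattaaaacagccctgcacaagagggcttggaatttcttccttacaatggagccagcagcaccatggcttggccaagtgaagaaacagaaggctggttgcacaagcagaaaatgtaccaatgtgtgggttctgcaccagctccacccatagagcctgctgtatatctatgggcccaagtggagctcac
Ear10 (chr14:43923597-43923846, minus strand): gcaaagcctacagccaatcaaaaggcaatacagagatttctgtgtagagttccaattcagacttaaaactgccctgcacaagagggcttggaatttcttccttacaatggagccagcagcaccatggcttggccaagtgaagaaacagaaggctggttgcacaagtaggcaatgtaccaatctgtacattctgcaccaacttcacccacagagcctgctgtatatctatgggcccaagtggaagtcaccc
With no gaps and a shift of 2 bases, the windows had the same letter at 212 of 248 positions, or 85.5%. Whether the Ear1 and Ear10 probes bind transcripts of each other was not tested.

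Ear10 had levels of 0.33, 0.88, 0.12 and -0.20 in wt_saline and was at the floor on ko_saline 1, 2 and 4, with -2.49 on ko_saline 3. Its difference of -3.39 ± 0.27 (SE, n = 4 and 4, limma adjusted p = 8.93e-06) depends in size on the floor. Ear1 had 1.54, 1.82, 1.32 and 0.75 in wt_saline and -2.25, -3.32, -1.25 and -3.32 in ko_saline. Both genes thus separated the groups, with ko_saline 3 as the highest knockout array. Ear6, of the same family, had -1.42 to 0.34 in wt_saline and was at the floor on all 4 ko_saline arrays, but was not called (limma adjusted p = 0.216). Rnase2a, a ribonuclease of the same chromosome that was on no list and was chosen after its values were seen, had 1.34 to 2.66 in wt_saline and -3.32 to -0.97 in ko_saline (limma adjusted p = 0.0589).

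Chil3 had levels of 4.82, 5.71, 4.97 and 5.40 in wt_saline and -1.38, 0.02, 2.92 and -0.90 in ko_saline. Its difference was -5.06 ± 0.89 (limma adjusted p = 0.0349). Chil4 had 0.74, 1.54, 1.20 and 1.70 in wt_saline, was at the floor on ko_saline 1, 2 and 4 and had -0.96 on ko_saline 3. The groups did not overlap for either gene, but the knockout arrays were widely spread, and ko_saline 3 was again the highest. Chil3 lost its call without any 1 of the 4 wt_saline or 4 wt_OVA arrays, ko_saline 1, 2 or 4, or ko_OVA 3, and Chil4 without wt_saline 2, 3 or 4, wt_OVA 1, or ko_saline 1, 2 or 4. With array position as a fixed block Ear10 was the 1 gene called lower. With only the 8 saline arrays Ear1, Chil3 and Chil4 lost their calls, while Ear10 kept its call. Chil1 and Chia1, other members of the chitinase family, differed by -0.34 ± 0.74 and 0.44 ± 0.30 and were not called.

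**Figure D2:**
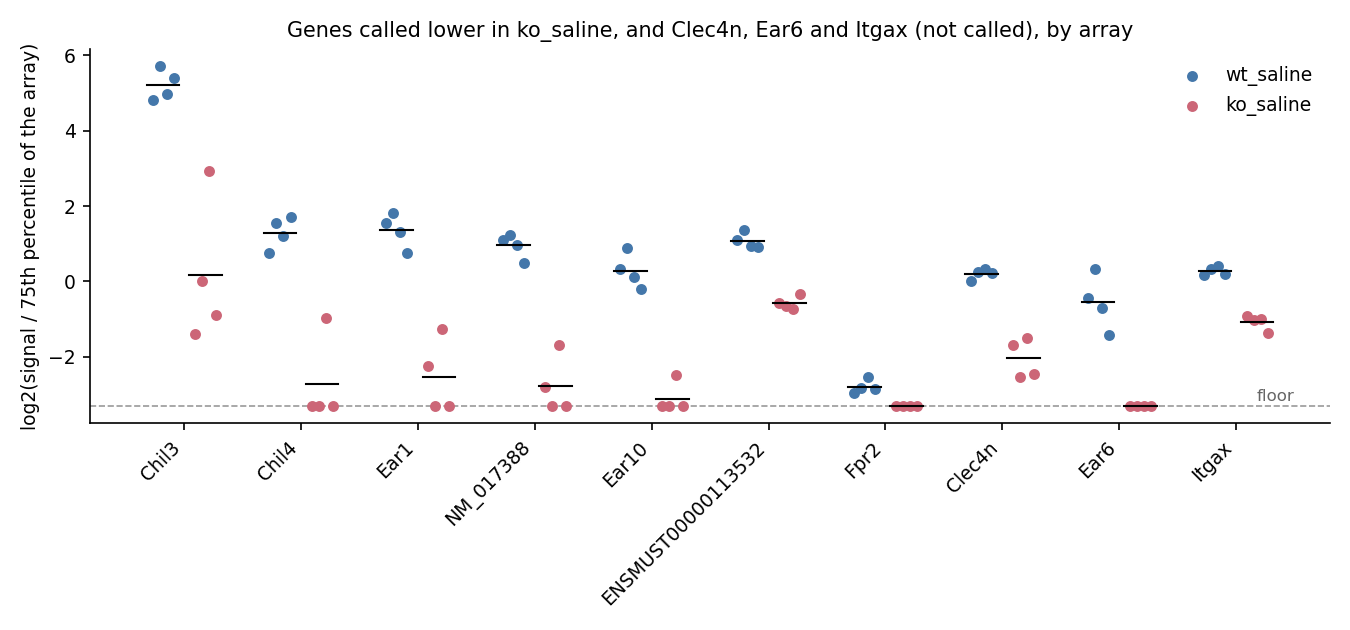
Levels of the 7 transcripts called lower in ko_saline and of Clec4n, Ear6 and Itgax, which were not called, as log2 of signal over the 75th percentile of the array, with 1 point per array, a bar at each group mean and a dashed line at the floor of -3.32. No gene has overlapping groups, and ko_saline 3 is the highest knockout array for Chil3, Chil4, Ear1, NM_017388 and Ear10.

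The remaining transcripts called lower were NM_017388 (-3.74 ± 0.42), ENSMUST00000113532 (-1.65 ± 0.20) and Fpr2, a receptor of formylated bacterial peptides on phagocytes. Fpr2 had -2.96 to -2.55 in wt_saline and was at the floor on all ko_saline arrays, so its difference of -0.52 depends on where the floor lies. It lost its call under 10 of 17 other settings and without any 1 of wt_saline 2, 3 or 4, wt_OVA 2, 3 or 4, or the 4 ko_saline arrays. NM_017388 and ENSMUST00000113532 have no symbol in the annotation used here.

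Markers of macrophages and eosinophils were read beside the ribonucleases. In the alveolar macrophage list 0 of 24 genes were called by limma, and at an unadjusted p under 0.05, 5 were lower and 1 higher. Itgax, which encodes CD11c, had 0.17, 0.34, 0.40 and 0.19 in wt_saline and -0.92, -1.01, -0.995 and -1.36 in ko_saline, with no overlap (limma adjusted p = 0.244), and Marco, a scavenger receptor, had means of 0.36 ± 1.20 and -1.69 ± 1.14 (SD, n = 4 each, limma adjusted p = 0.438). In the macrophage and dendritic cell list 0 of 23 were called, 3 being higher and 5 lower at an unadjusted p under 0.05. Clec4n, a lectin of myeloid cells that binds fungal mannans, had 0.00 to 0.32 in wt_saline and -2.52 to -1.51 in ko_saline (limma adjusted p = 0.0537). The mean over the alveolar macrophage list was -0.32 to 0.02 in wt_saline and -0.59 to -0.12 in ko_saline, and Csf1r, the receptor of the macrophage growth factor, was -0.06 to 0.45 and 0.17 to 0.90. The eosinophil markers Ccr3 and Siglecf were at the floor on all 8 arrays and on all but wt_saline 3. The eosinophil list, which shares Ear1 and Ear6 with the ribonuclease list, had 3 of 5 lower and 0 higher at an unadjusted p under 0.05, with means of -1.01 to -0.48 in wt_saline and -2.40 to -1.86 in ko_saline. The part of these cells in the lower ribonuclease levels was not tested.

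Because beta6 acts through TGF-beta, its pathway was read by role. None of the 16 measured ligands, latency proteins and activators was called by limma (1 higher and 0 lower at an unadjusted p under 0.05), none of the 18 receptors and signal transducers (1 and 1), and none of the 32 target genes (1 and 2). Their medians were 0.02, 0.00 and -0.02. The ligands Tgfb1, Tgfb2 and Tgfb3 differed by -0.39 ± 0.31, 0.04 ± 0.28 and 0.12 ± 0.18, and Itgav, the partner of beta6, by -0.02 ± 0.16. The latent binding proteins Ltbp3 and Ltbp4 differed by 0.04 ± 0.11 and -0.16 ± 0.21. Nrros, which holds latent TGF-beta on myeloid cells, had -0.58 to -0.41 in wt_saline and 0.93, 1.23, 1.41 and -0.06 in ko_saline, without overlap (limma adjusted p = 0.398).

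Among receptors and transducers, Tgfbr1 and Tgfbr2 differed by 0.09 ± 0.19 and -0.04 ± 0.16, and Smad2, Smad3 and Smad4, which carry the signal to the nucleus, by -0.14 ± 0.10, 0.06 ± 0.19 and 0.03 ± 0.14. The feedback inhibitors Smad7 and Smad6 differed by -0.16 ± 0.19 and -0.43 ± 0.18. Of the targets, fibronectin (Fn1), a matrix protein, was at or near the floor in wt_saline and at 0.54, 1.31, 2.20 and -2.74 in ko_saline (limma adjusted p = 0.154). Bhlhe40, a transcription factor, had 2.16 to 2.62 and 1.36 to 1.91. Pmepa1, Ccn2 and Tgfbi, further targets, differed by 0.15 ± 0.18, 0.35 ± 0.43 (with ko_saline 3 left out as a flagged spot) and -0.21 ± 0.40. A p that misses the threshold does not show that the levels were the same.

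**Figure D3:**
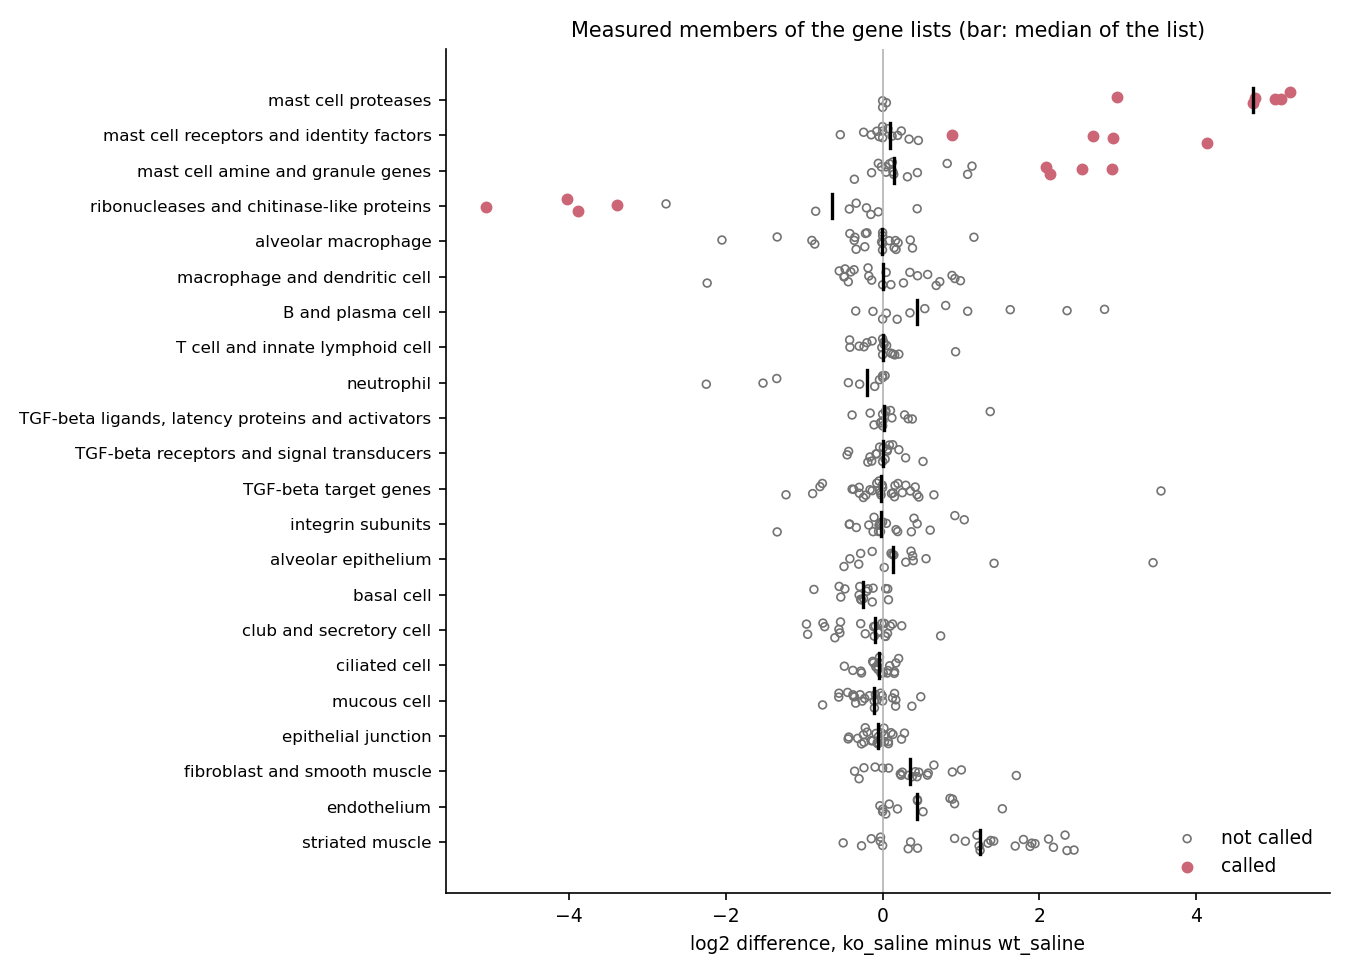
Log2 difference, ko_saline minus wt_saline, of each measured member of 22 gene lists, with a bar at the median of each list and filled points for called genes. Called members lie in the mast cell lists on the right and in the list of ribonucleases and chitinase-like proteins on the left, and the medians of the 3 TGF-beta lists lie at 0.02, 0.00 and -0.02.

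Epithelial lists held no called gene. Of 16 basal cell genes 0 were called (median -0.26, 1 lower at an unadjusted p under 0.05), with Krt14, a keratin of basal cells, at -0.88 ± 0.27 (limma adjusted p = 0.515) and the water channel Aqp3 at -0.55 ± 0.27, with flagged spots left out on ko_saline 1 and 4. The club and secretory list had 0 of 24 (median -0.10, 2 lower at an unadjusted p under 0.05), and the mucous cell list 0 of 25 (median -0.11, 3 lower). Spdef, which drives mucous cell fate, had 1.08 to 1.41 in wt_saline and 0.31 to 0.99 in ko_saline (limma adjusted p = 0.442). The epithelial junction list had 0 of 26, with 0 below an unadjusted p of 0.05 and a median of -0.06. The tuft and neuroendocrine list had 0 of 18 (median 0.06), with Trpm5, the cation channel of tuft cells, at -0.48 ± 0.18.

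Secreted signals of the epithelium were not called either. In the list of alarmins and epithelial chemokines 0 of 23 passed (2 higher and 4 lower at an unadjusted p under 0.05). Ccl2, a chemokine for monocytes, was at or near the floor in wt_saline and at -0.44, -0.99, -0.22 and -1.53 in ko_saline (limma adjusted p = 0.0589), and Il1b, an inflammatory cytokine, had means of 0.39 ± 0.63 and -1.86 ± 0.45 (SD, n = 4 each, limma adjusted p = 0.649). In the prostaglandin and leukotriene list 0 of 18 passed (1 higher and 2 lower at an unadjusted p under 0.05), with Ptges, which makes prostaglandin E, at 1.02 to 1.52 and 0.54 to 0.79 (limma adjusted p = 0.0856) and Alox5, which starts leukotriene synthesis, at a difference of 0.66 ± 0.22. In all, 34 of the 40 lists held no called gene, and their medians ran from -0.49 (antimicrobial and acute phase) to 1.24 (striated muscle). The mean of the striated muscle list was highest on ko_saline 2 and 3 and lowest on ko_saline 1, and in wild type it ran from -1.85 on wt_saline 2 to 0.47 on wt_saline 1.

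Chromosome 2, which carries Itgb6, was read separately. Of 1022 tested genes there 3 were called, all higher, and they were Rprm, Enkur and Chst1, which lie -6.58, -39.5 and 31.9 Mb from Itgb6 in the annotation. Within 10 Mb 53 genes were measured, and Rprm was the 1 called. The next smallest p-values there belonged to Cytip (0.64 ± 0.14, limma adjusted p = 0.155), Lrp2 (1.095 ± 0.31), Dpp4 (0.79 ± 0.27) and Gpd2 (-0.44 ± 0.17). Chromosome 2 held 7.95% of the 12850 tested genes with a symbol and 12.5% of the 24 called ones.

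Just short of the threshold the share was larger. Of 15 genes with an adjusted p from 0.05 to 0.10, all with a symbol, 7 lie on chromosome 2, so that of the 39 genes under 0.10 it held 10, or 25.6%, and 9 of these 10 were higher in ko_saline. This cut and the genes named from it here were chosen after their values were seen. They are Hc, complement component C5, with -1.43, -0.55, -1.28 and -0.33 in wt_saline and 2.74, 1.31, 2.66 and 3.08 in ko_saline, Cd93 (2.39 ± 0.46), Lypd6 (1.13 ± 0.22), Thnsl1 (0.74 ± 0.15), Dph7 (0.73 ± 0.14), Trub2 (0.68 ± 0.13) and Ptges (-0.59 ± 0.12). Whether sequence differences near the targeted gene have a part in these values, or in those of Rprm, Enkur and Chst1, was not tested.

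**Figure D4:**
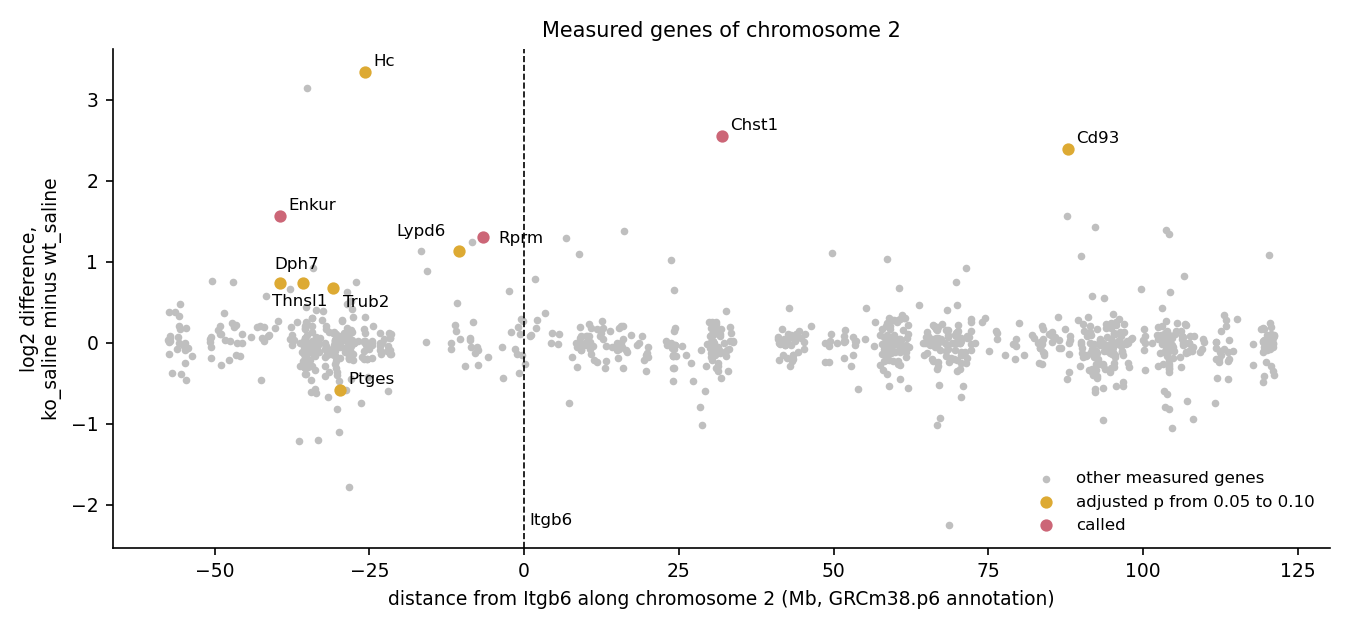
Log2 difference, ko_saline minus wt_saline, of the measured genes of chromosome 2 against their distance from Itgb6 in Mb in the annotation, with the 3 called genes and the 7 genes with an adjusted p from 0.05 to 0.10 marked and named. Of these 10 genes 9 are higher in ko_saline, and they lie on both sides of Itgb6, from -39.5 Mb to 87.8 Mb.

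The difference by genotype after saline was then set beside that after OVA, in ko_OVA against wt_OVA, which shares no array with it but shares the variance estimate of each gene. After OVA 27 transcripts were called, 0.145% of those tested. Of the 30 called after saline, 29 had the same sign after OVA, Fpr2 (0.07 ± 0.09 after OVA) being the exception, and 21 were also called with that sign, while 0 were called with the opposite sign. Among the 14 mast cell genes 11 were also called after OVA, and Mcpt4 (limma adjusted p = 0.388), Lat2 (0.221) and Mrgprb2 (0.109) were not.

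The interaction is the difference by genotype after OVA minus that after saline. The 14 mast cell genes were chosen for their difference after saline, which enters this term and favours values below 0, so their values are a description. They ran from -3.41 ± 0.60 for Mcpt4 to -0.11 ± 0.28 for Fcer1a. Cpa3 had an interaction of -2.36 ± 0.41, its knockout means being 2.75 after saline and 2.64 after OVA and its wild-type means -2.45 and -0.20. Tph1 had one of -1.53 ± 0.22. None passed limma's adjusted threshold, the adjusted p-values running from 0.155 to 0.994, and over all genes 0 of 18566 did (569, or 3.06%, at an unadjusted p under 0.05).

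Among the genes called lower, Ear10 and Ear1 were also called after OVA, with differences of -2.52 ± 0.27 and -3.31 ± 0.54. Chil3 and Chil4 had -1.74 ± 0.89 and -0.99 ± 0.69 after OVA and were not called, Chil4 with 1 flagged spot left out. Their means after OVA were 6.44 and 4.06 in wild type and 4.70 and 3.07 in knockout, beside 5.22 and 1.30 in wild type and 0.17 and -2.73 in knockout after saline. Ednra (1.44 ± 0.17 after OVA) and Enkur (1.17 ± 0.15) were called after both agents, and Rprm (0.32 ± 0.15) was not called after OVA.

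**Figure D5:**
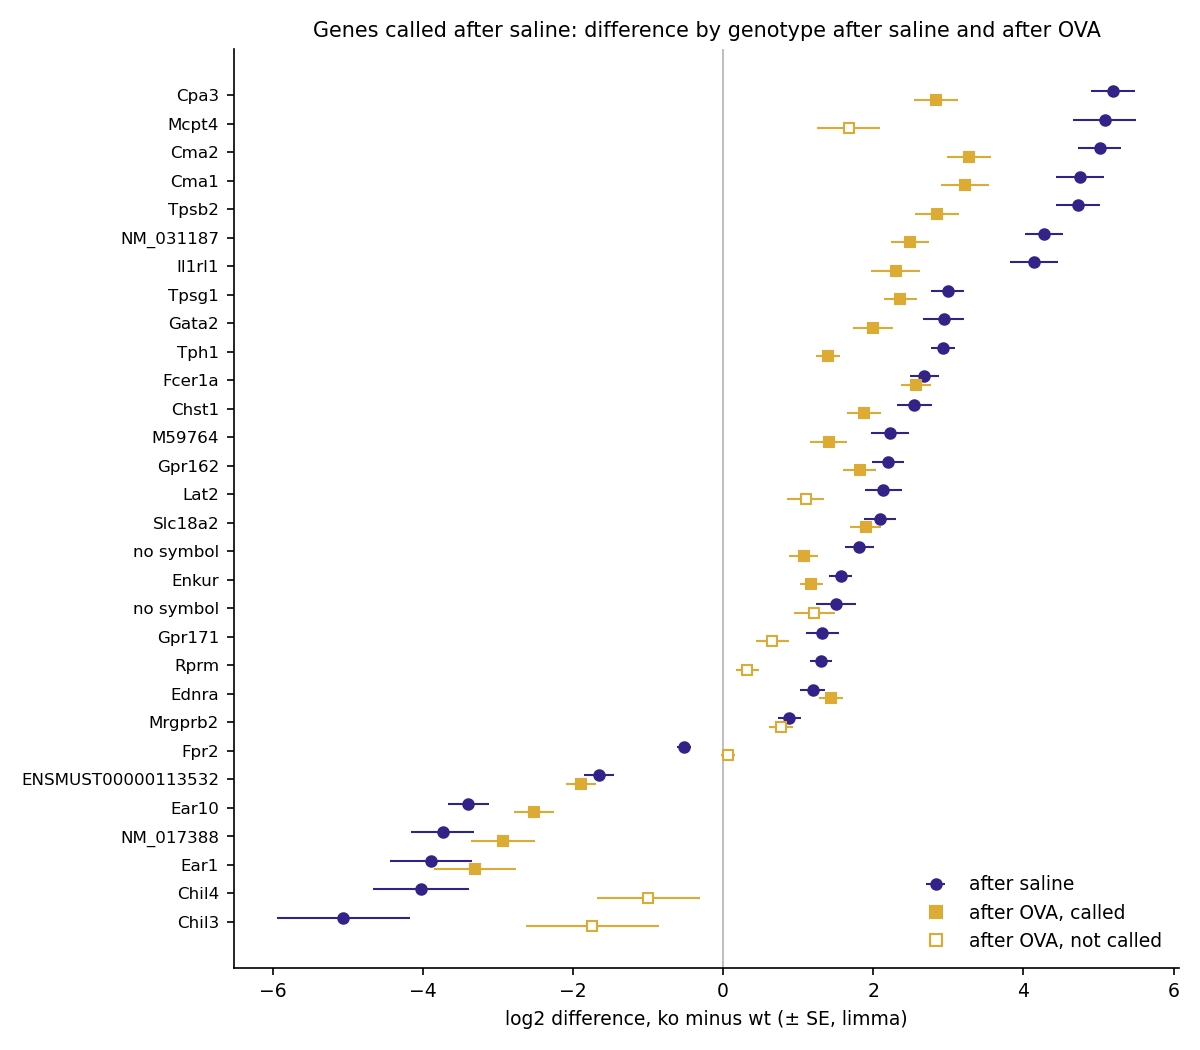
Log2 difference by genotype (ko minus wt) with its standard error from limma for the 30 transcripts called after saline, after saline (circles) and after OVA (squares, filled where called). Of the 30, 29 have the same sign after both agents and 21 are called after both, and for the mast cell genes the value after OVA is the smaller.

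The count of called genes depended on which arrays set the fit. It was 47 without ko_saline 4 (41 higher, 6 lower) and 46 without ko_OVA 4 (32 higher, 14 lower), the dimmest array of the series, which also sets the floor. It was 15 with array position as a fixed block (14 higher, 1 lower) and 38 with only the 8 saline arrays, which shared 20 of the 30 calls.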

How the data were processed

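RNA of brushed mouse airway epithelium was measured on one-colour Agilent arrays, 4 per group in 4 groups. The deposited scanner files give a background-subtracted signal intensity per spot from Feature Extraction. Its version is 10.5.1.1 per the file headers, whereas the submitters' processing notes name 10.1. The authors' deposited value table holds log2 values of the same arrays, with scale and centring not stated, and served as an alternative. Quality flags are other values, per the file headers. No level of depth is known beyond the signal, so the number of arrays limits the precision.

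Each signal was divided by the 75th percentile of its array and set to a common floor before taking log2. Differences, standard errors and p-values of genes at the floor therefore depend on it. Flagged spots were left out. A probe was kept if at least 4 of 16 arrays had it well above background, and the brightest probe stood for a gene. Genes at the floor on every array were not tested. Genes and transcripts, 18566 in all, 12850 of them with a symbol through RefSeq accessions, were tested in limma 3.58.1 (R 4.3.3) over all 16 arrays with 1 mean per group and Benjamini-Hochberg adjustment. The procedure was checked on simulated data, in which most changed genes were recovered and some unchanged genes were called as well. Only genes with a mean level well above the floor were changed there, so recovery of dimmer genes was not checked.

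Named were Itgb6, every called gene with a symbol, from each list up to 4 called members or else the 2 of smallest p, members of the mast cell, ribonuclease and chitinase-like, and TGF-beta lists, defining cell type markers, the 5 genes of smallest p within 10 Mb of Itgb6, and the 2 largest unnamed transcripts in each direction. Members and lists were chosen with earlier results of these data known. Alternatives covered scaling, background, filter, floor, probe choice, blocks and each array left out.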

Additional observations from a re-analysis of the deposited data

Results flagged for a closer look

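In 6 of 62 groups of 4 arrays, 1 array lay far from the other 3. For values without a floor, chance alone gives about 1 in 20. That rate does not apply to this count, because groups wholly at the floor are among the 62 and could not be flagged. Tpsb2 had a level of 2.62 on ko_saline 1, against a next value of 2.21. Gata2 had -1.04 on ko_saline 4, against -0.21 on the nearest array. In the other 4 groups the remaining 3 arrays were at the floor, so that any level above it stood apart. These were Tph1 on wt_saline 4 (-3.24), Rprm on wt_saline 1 (-3.13), Ear10 on ko_saline 3 (-2.49) and Chil4 on ko_saline 3 (-0.96).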

How the results depend on the processing

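The main setting called 30 genes, 23 higher and 7 lower, with 4 called members in the lists other than the mast cell ones, and a protease median of 4.72. A lower floor called 46, 38 higher, with 7 in those other lists. The authors' deposited log2 values called 55, 45 higher, with 7 in the other lists and a protease median of 4.21. Without ko_OVA 4 in fit, floor and filter, an alternative chosen after seeing the data, 59 were called, 44 higher and 15 lower, with 9 in the other lists. The 8 saline arrays alone gave 11 lower. Array position as a fixed block gave 15, 14 higher and 1 lower, with 1 in the other lists and a protease median of 4.24. With normexp background the protease median was 3.65, within slides 2 and 4 it was 3.96 and 4.08, and within position 1 it was 4.28.

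Same-numbered arrays correlated at -0.12, -0.06, 0.35 and 0.01 in their deviations from the group means, so the numbers do not pair the samples, and only number 3 correlated best with its own. The replicate block called 27, 4 of them lower, with 2 in the other lists.

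Leaving out single arrays gave 25 (without wt_saline 3 or ko_saline 1) to 47 calls (without ko_saline 4), 20 to 41 higher and 4 to 14 lower. Lower calls were 4 without wt_saline 2 or ko_saline 1, 11 without ko_OVA 1 and 14 without ko_OVA 4. The other lists had 2 called members without wt_saline 2, 3 or 4, wt_OVA 1, or ko_saline 1 or 2, and 8 without ko_OVA 4, and the protease median was 4.40 to 4.83. Among the 30 genes the interaction had 0 calls by limma (18 at an unadjusted p under 0.05, among genes chosen on the saline difference), but 1 without wt_OVA 2 and 1 without ko_OVA 4. Apart from fewer samples or genes in a fit, the cause of these changes was not tested. Of the 30 calls, 14 passed under every setting, 24 passed without each array, and 0 changed sign.

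Dim genes at the floor have only a bound on their level, and 4 arrays per group limit the precision.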
